A study of Homo sapiens with 4 samples.

Results

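The control transcriptome of HCT116 cells was described from the 2 libraries labelled shPLKO, out of 4 in the series, and across the 20003 genes that both libraries list. HCT116 is an established epithelial cell line derived from a human colorectal carcinoma. Both libraries were of wild-type genotype with no drug treatment per the labels, and both carried the control of a hairpin knockdown study, which the labels call shPLKO and the series description shScramble. The cells of all groups were grown in DMEM with 10% fetal bovine serum at 37 °C and 5% CO2, and libraries were made from 1.3 µg of total RNA with a SMARTer mRNA kit. The knockdown libraries of the study were not used. The labels do not say whether shPLKO 1 and 2 came from separate cultures, so the spread between them, given throughout as both values (n = 2), may be technical. The line is a single tumour-derived line held under 1 condition, and no comparison between conditions is made here.

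The lining of the colon is renewed from stem cells at the base of crypts, which are kept dividing by Wnt signals and give rise to absorptive enterocytes and to secretory goblet and enteroendocrine cells. Transcription factors such as CDX2, HNF4A and the GATA factors set the intestinal identity of these cells, and genes of the mature cell types follow as they leave the crypt. HCT116 cells are known for activating mutations in CTNNB1 and PIK3CA and for the loss of DNA mismatch repair, which gives the line a high rate of further mutation.

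Levels are given in RPKM, which divides the reads of a gene by its length in kilobases and by the depth of the library, so that levels of different genes can be set side by side. Each pair of values names shPLKO 1 first and shPLKO 2 second. The depths recovered from the values were 30459886 and 30306821 reads, and at that depth 1 RPKM on a gene model of 2 kb stood for 60.9 reads in shPLKO 1. A gene model of that length with 3 reads would be listed at 0.0492 and 0.0495 RPKM, the limit that a count of 0 allows. In total 10914 genes (54.6% of 20003) were at or above 1 RPKM in both libraries, 5110 were at or above 10, 611 at or above 100 and 62 at or above 1000. That 54.6% is the background for every count of list or family members below. At the other end, 3149 genes (15.7%) were listed at 0 in both. The median level over all genes was 1.76 RPKM in shPLKO 1 and 1.83 RPKM in shPLKO 2. Among the genes at 0 in 1 library only, 643 in shPLKO 1 and 623 in shPLKO 2, the highest level in the other library was 1.47 RPKM.

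RefSeq promoters of 300 bases, from 250 before to 50 after the annotated start (build GRCh38.p14), were matched by symbol for 15531 genes, 77.6% of all. For 4 genes that span the range of levels the 250 bases before the start are given here, 5′ to 3′ on the strand of the gene, with each CG dinucleotide in capitals. ACTG1 (chr17:81512800-81513049, minus strand), which encodes cytoplasmic gamma-actin, was the highest gene of the cells. KRT8 (chr12:52926470-52926719, minus strand) encodes the highest keratin. CDX2 (chr13:27969316-27969565, minus strand) is the homeobox factor that specifies intestinal epithelium, and FABP1 (chr2:88128063-88128312, minus strand), a fatty acid carrier of enterocytes, was listed at 0.
ACTG1: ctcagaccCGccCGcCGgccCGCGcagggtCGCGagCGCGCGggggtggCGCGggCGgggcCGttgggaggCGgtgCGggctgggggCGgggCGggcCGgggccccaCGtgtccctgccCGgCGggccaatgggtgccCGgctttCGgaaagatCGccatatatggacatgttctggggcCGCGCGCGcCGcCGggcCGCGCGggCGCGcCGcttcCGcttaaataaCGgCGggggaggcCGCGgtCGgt
KRT8: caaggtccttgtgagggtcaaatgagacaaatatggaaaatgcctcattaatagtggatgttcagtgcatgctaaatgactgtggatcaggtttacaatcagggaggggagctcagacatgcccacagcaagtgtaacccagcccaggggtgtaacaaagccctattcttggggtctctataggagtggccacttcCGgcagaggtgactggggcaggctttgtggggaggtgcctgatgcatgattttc
CDX2: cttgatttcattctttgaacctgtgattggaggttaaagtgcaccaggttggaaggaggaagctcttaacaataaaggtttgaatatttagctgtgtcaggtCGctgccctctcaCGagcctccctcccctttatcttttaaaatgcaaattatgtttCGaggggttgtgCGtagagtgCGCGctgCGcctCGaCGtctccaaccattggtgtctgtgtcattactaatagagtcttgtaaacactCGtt
FABP1: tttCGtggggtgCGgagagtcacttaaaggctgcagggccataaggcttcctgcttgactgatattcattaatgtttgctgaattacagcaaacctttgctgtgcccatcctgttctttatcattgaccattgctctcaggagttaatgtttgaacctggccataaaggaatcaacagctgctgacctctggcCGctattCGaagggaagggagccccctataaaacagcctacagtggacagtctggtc
The stretch before ACTG1 held 43 CG dinucleotides, against 10 for CDX2, 4 for FABP1 and 1 for KRT8. Over the full 300 bases the observed number of CG dinucleotides, divided by the number that the C and G content would give, was 1.12 for ACTG1, 0.844 for CDX2, 0.374 for FABP1 and 0.111 for KRT8. FABP1 alone of these 4 held the letters TATAAA in the window from 40 to 11 bases before the start, at position -31. Whether the cells use these annotated starts, here and in the medians below, was not tested. The stretches need not be the promoters behind the levels given.

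Across genes at or above 1 RPKM in both libraries, the median of this CG ratio was 0.832, against 0.579 over all 35116 promoters of the table, which also holds noncoding genes. The share of genes with a ratio of at least 0.6 was 79.5% for genes with a mean from 1 to 10 RPKM, 88.0% from 10 to 100 RPKM and 91.7% at 100 RPKM and above, against 48.9% of all promoters. The letters TATAAA, searched on the strand of the gene only, stood in the same window of 1.82%, 1.87% and 5.13% of the genes in these 3 classes and of 2.34% of all promoters. These are descriptions over genes, which are not independent replicates. The comparison with genes at 0 is void, because 70.8% of them had a promoter in the table, under the 80% asked for.

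A small number of genes made up much of the RNA on the length-corrected scale. The 30 highest genes held 20.1% of the summed RPKM in shPLKO 1 and 19.4% in shPLKO 2, and 256 and 279 genes held 50% of it. Of these 30 genes, 19 encode cytosolic ribosomal proteins, 3 encode keratins and 8 encode other proteins. ACTG1 led at 6959 and 6736 RPKM. RPS2, a protein of the small ribosomal subunit, followed at 5539.7 and 4902 RPKM, and RPS18 of the same subunit stood at 4639 and 4333 RPKM. KRT8, the type II keratin of simple epithelia, was at 4389 and 4137 RPKM, and its partners KRT18 and KRT19 were at 3049 and 2796 RPKM and at 2256 and 2103 RPKM. The 3 keratins together held 2.23% and 2.13% of the summed RPKM.

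The other high genes that are not ribosomal serve the cytoskeleton, chromatin, translation, iron storage and glycolysis. TMSB10, a thymosin that binds actin monomers, was at 4258 and 4099 RPKM. HMGA1, an architectural chromatin protein that is high in embryonic and tumour cells, was at 2504 and 2386 RPKM. EEF1A1, which brings aminoacyl-tRNA to the ribosome, was at 2456 and 2552 RPKM, and EEF2, which moves the ribosome along, was at 1971 and 1873 RPKM. The ferritin chains FTH1 and FTL, which store iron, were at 2346 and 2268 RPKM and at 1969.6 and 1923 RPKM. GAPDH, a glycolytic enzyme, was at 2255 and 2162 RPKM. The largest fold between the libraries among these 30 genes was 1.13, and 28 of the 30 were higher in shPLKO 1, with EEF1A1 and RPS6 as the exceptions. The last of the 30, EEF2, lay just above RPL38, the next in order, with means of 1922 and 1900 RPKM.

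The ribosomal proteins as a family held 24.7% and 23.8% of the summed RPKM, with 82 of 87 members at or above 1 RPKM in both libraries and a median of 1021 RPKM. By reads rather than by length-corrected level their share was smaller, 10.9% and 10.3% of the reads on genes. The order of the highest genes also differs by reads: EEF1A1, with a gene model of 3512 bases, stood 13th by RPKM and was among the next after ACTG1 by reads, with 262757 and 271649 reads. KRT8 had 268149 and 251536 reads, so the ranges of EEF1A1 and KRT8 overlap and their order by reads is not resolved. ACTG1 itself took 446204 and 429706 reads, which is 1.552% and 1.505% of the reads on genes. HMGA1, EEF2, RPS2, KRT18, GAPDH, RPL3 and RPL13A made up the rest of the 10 highest by reads. Of the 30 highest genes, 26 share at least 10% of their 31-base words with the annotated transcript of another gene, many of them pseudogenes, and how such reads were assigned is not given in the sources used here. RPS2 shared the most, 70.9%, and EEF2 shared none. Levels of these genes are uncertain to that extent.

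**Figure D1:**
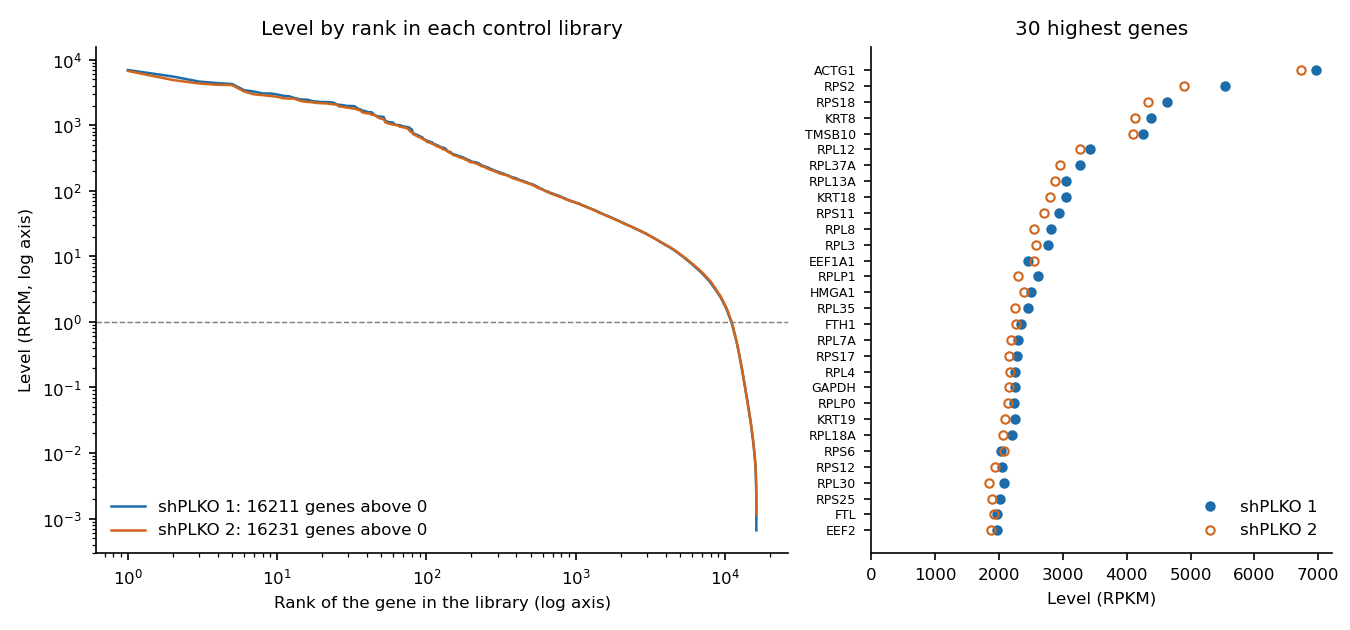
Left, level in RPKM (log axis) against rank of the gene (log axis) in shPLKO 1 and shPLKO 2, with a dashed line at 1 RPKM; right, levels in RPKM of the 30 highest genes, filled points for shPLKO 1 and open points for shPLKO 2. The curves of the libraries lie over each other, and ACTG1 stands apart at 6959 and 6736 RPKM.

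Other basic machinery was present nearly throughout. All 37 listed subunits of respiratory complex I were at or above 1 RPKM, led by NDUFB9 at 563 and 505 RPKM. Of 78 mitochondrial ribosomal proteins 77 were, led by MRPL51 at 181 and 169.95 RPKM, and MRPS24 was listed at 0. Of 39 proteasome subunits 37 were, led by PSMB1 at 423 and 400.3 RPKM. The exceptions were PSMA8, a testis subunit, at 0.0692 and 0.0174 RPKM, and PSMB11, the subunit of thymic epithelium, at 0 and 0.0174 RPKM. Among 49 initiation factors 46 passed, with the helicase EIF4A1 at 531 and 524 RPKM. Heterogeneous nuclear ribonucleoproteins were less complete, with 20 of 25 at or above 1 RPKM and 4 listed at 0. Metallothioneins lay below the share of all genes, with 4 of 11 passing and 5 listed at 0, though MT2A was at 922 and 801 RPKM. S100 proteins passed at about the rate of all genes, 11 of 19, with the calcium-binding S100A6 at 1355 and 1249.9 RPKM.

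The cells carried the markers of epithelium. Of 19 epithelial markers 15 were at or above 1 RPKM in both libraries, against 54.6% of all genes. Of 37 adhesion and junction genes, 32 were at or above 1 RPKM. The tight junction claudins CLDN4 and CLDN7 were at 541 and 539 RPKM and at 209 and 208 RPKM. The protease ST14 was at 267 and 271 RPKM and its membrane inhibitor SPINT2 at 497 and 479 RPKM. EPCAM, the adhesion molecule used to define epithelial cells, was at 129.8 and 132 RPKM. E-cadherin (CDH1), which holds neighbouring cells together, was at 42.7 and 46.6 RPKM, below P-cadherin (CDH3) at 88.5 and 89.9 RPKM. Its partners at the membrane, JUP and CTNNA1, were at 159.8 and 153 RPKM and at 144 and 141 RPKM. The splicing regulators ESRP1 and ESRP2 were at 21.9 and 23.5 RPKM and at 10.7 and 10.3 RPKM. The members under 1 RPKM were CLDN1 at 0.333 and 0.344 RPKM, CEACAM1 at 0.209 and 0.174 RPKM, the carcinoembryonic antigen gene CEACAM5 at 0.0278 and 0.0652 RPKM, CLDN2 at 0.00955 and 0.0192 RPKM and CEACAM6 at 0 and 0.0127 RPKM.

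The 4 epithelial markers below 1 RPKM are all genes of intestine: VIL1, LGALS4, CDX1 and CDH17. Villin (VIL1), which bundles actin in microvilli, was at 0.0719 and 0.133 RPKM, from 6 and 11 reads. LGALS4, an intestinal galectin, was at 0.0732 and 0.0736 RPKM, from 4 reads in each library. LI-cadherin (CDH17) was at 0.0431 and 0 RPKM, from 5 and 0 reads. Thus 12 of the 19 epithelial markers were at or above 10 RPKM in both libraries. OVOL1, CDX2 and GRHL2 lay lower, with OVOL1 at 9.96 and 9.12 RPKM and GRHL2 at 2.52 and 2.46 RPKM. VIL1, LGALS4 and CDH17, markers of intestinal brush border and surface, were at or near 0, as was the intestinal factor CDX1. In bulk RNA, a low level from fewer cells and less RNA per cell cannot be told apart.

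Markers of other cell types were low as groups. Of 12 leukocyte markers 0 reached 1 RPKM in both, and the highest, CSF1R, was at 0.775 and 0.656 RPKM, with the pan-leukocyte gene PTPRC at 0.0199 and 0.0301 RPKM. Of 8 endothelial markers 1 did, TIE1 at 1.07 and 1.24 RPKM, and PECAM1 was at 0.0134 and 0.0269 RPKM. Of 7 hepatocyte markers SERPINA1, an antiprotease, was at 3.502 and 3.37 RPKM, and albumin (ALB) was at 0.0141 and 0.0283 RPKM. Of 8 muscle markers the intermediate filament gene DES was at 12.8 and 12.1 RPKM, and MYOD1 and MYF5 were listed at 0. Of 10 neuronal markers SYT1 and MAP2 were at 5.62 and 7.11 RPKM and at 2.89 and 3.46 RPKM, and SNAP25 was at 0.224 and 0.182 RPKM. Of 6 erythroid markers 0 reached 1 RPKM in both, with HBA1 at 2.004 and 0.708 RPKM. Of 16 mesenchymal markers 5 passed. Fibronectin (FN1) was highest at 12.1 and 13.7 RPKM, then ACTA2 at 9.94 and 9.302 RPKM and COL1A1 at 6.34 and 6.72 RPKM, while vimentin (VIM), the main filament of mesenchymal cells, was at 1.83 and 1.596 RPKM and N-cadherin (CDH2) at 0.0677 and 0.0613 RPKM.

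Of 47 transcription factors of the intestinal lineage, 22 were at or above 1 RPKM in both libraries and 6 were listed at 0 in both, so the share (46.8%) lay somewhat below the 54.6% of all genes. ELF3, an epithelial ETS factor, was the highest at 87.2 and 87.6 RPKM. KLF5, a factor of dividing crypt cells, was at 35.5 and 38.1 RPKM and SOX9, a crypt factor induced by Wnt, at 35.5 and 37.6 RPKM. The ranges of KLF5 and SOX9 overlap, so their order is not resolved. KLF4, which is linked to differentiation, was at 27.5 and 28.8 RPKM. TCF7L2, the main DNA-binding partner of beta-catenin in colon, was at 25.8 and 27.4 RPKM, and its relative TCF7 was at 2.57 and 2.58 RPKM. HES1, the effector of Notch, was at 18.6 and 18.8 RPKM, and the ETS factor ETV4 was at 16.9 and 17.5 RPKM.

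The factors that define intestine were lower. GATA6 was at 4.64 and 5.02 RPKM and CDX2 at 4.67 and 4.23 RPKM, with 649 and 584 reads for CDX2, and the ranges of these 2 genes overlap. HNF4A, a nuclear receptor of absorptive epithelium, was at 2.88 and 2.904 RPKM. CDX1, the closest relative of CDX2, was at 0.0185 and 0.0559 RPKM, from 1 and 3 reads. ASCL2, a Wnt-induced factor of crypt stem cells, was at 0.0355 and 0 RPKM, and LEF1 was at 0.0318 and 0 RPKM. ATOH1, which directs cells to the secretory fate, was at 0.123 and 0.248 RPKM, and the goblet cell factor SPDEF was at 0.0948 and 0.0847 RPKM. The endocrine factors NEUROG3, INSM1 and NKX2-2, the enterocyte factor ISX, and GATA5 and SOX17 were listed at 0 in both libraries. Of the 21 neighbouring pairs among the 22 factors above 1 RPKM, 5 had ranges that overlap. A range of 2 values, here and for the receptors below, does not settle the order of the other pairs.

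Stem cell markers of the crypt split widely. Of 25, 17 (68%) were at or above 1 RPKM, against 54.6% of all genes. CD44, a hyaluronan receptor, was at 63.01 and 67.9 RPKM and PTK7, a Wnt co-receptor, at 60.7 and 60.7 RPKM. Wnt feedback genes were lower: RNF43 at 6.82 and 7.06 RPKM, ZNRF3 at 3.85 and 3.66 RPKM, NOTUM at 8.62 and 7.93 RPKM and AXIN2 at 3.58 and 3.92 RPKM. LGR5, the R-spondin receptor that marks crypt stem cells, was at 0.00712 and 0.00716 RPKM, 1 read in each library. OLFM4 was at 0.0112 and 0 RPKM, 1 read in shPLKO 1 only. SMOC2 was at 0.00902 and 0.0272 RPKM, and HOPX was listed at 0.

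Products of mature cell types were mostly below 1 RPKM. Of 34 enterocyte and colonocyte products, 4 were at or above 1 RPKM and 11 were listed at 0 in both. Carbonic anhydrase 2 (CA2) stood out at 47.5 and 47.1 RPKM. The peptidase DPP4 was at 7.4002 and 8.22 RPKM, the bile acid carrier FABP6 at 6.51 and 6.55 RPKM and KRT20, a keratin of differentiated colonocytes, at 1.87 and 1.88 RPKM. Those at 0 were FABP1, FABP2, SLC26A3, GUCA2A, PHGR1, CA4, CEACAM7, APOB, MS4A12, TMIGD1 and CYP3A4. Of 34 goblet, Paneth and enteroendocrine products 3 passed: the granin SCG2 at 2.97 and 3.502 RPKM, the gut hormone PYY at 2.45 and 2.71 RPKM and the vesicle protein SYP at 1.24 and 1.49 RPKM. The goblet mucin MUC2 was at 0.0545 and 0.0261 RPKM, and TFF3, CLCA1, CHGA, DEFA5 and DEFA6 were among 11 listed at 0. Of 15 mucins only MUC3A, at 3.47 and 3.499 RPKM, passed 1 RPKM.

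**Figure D2:**
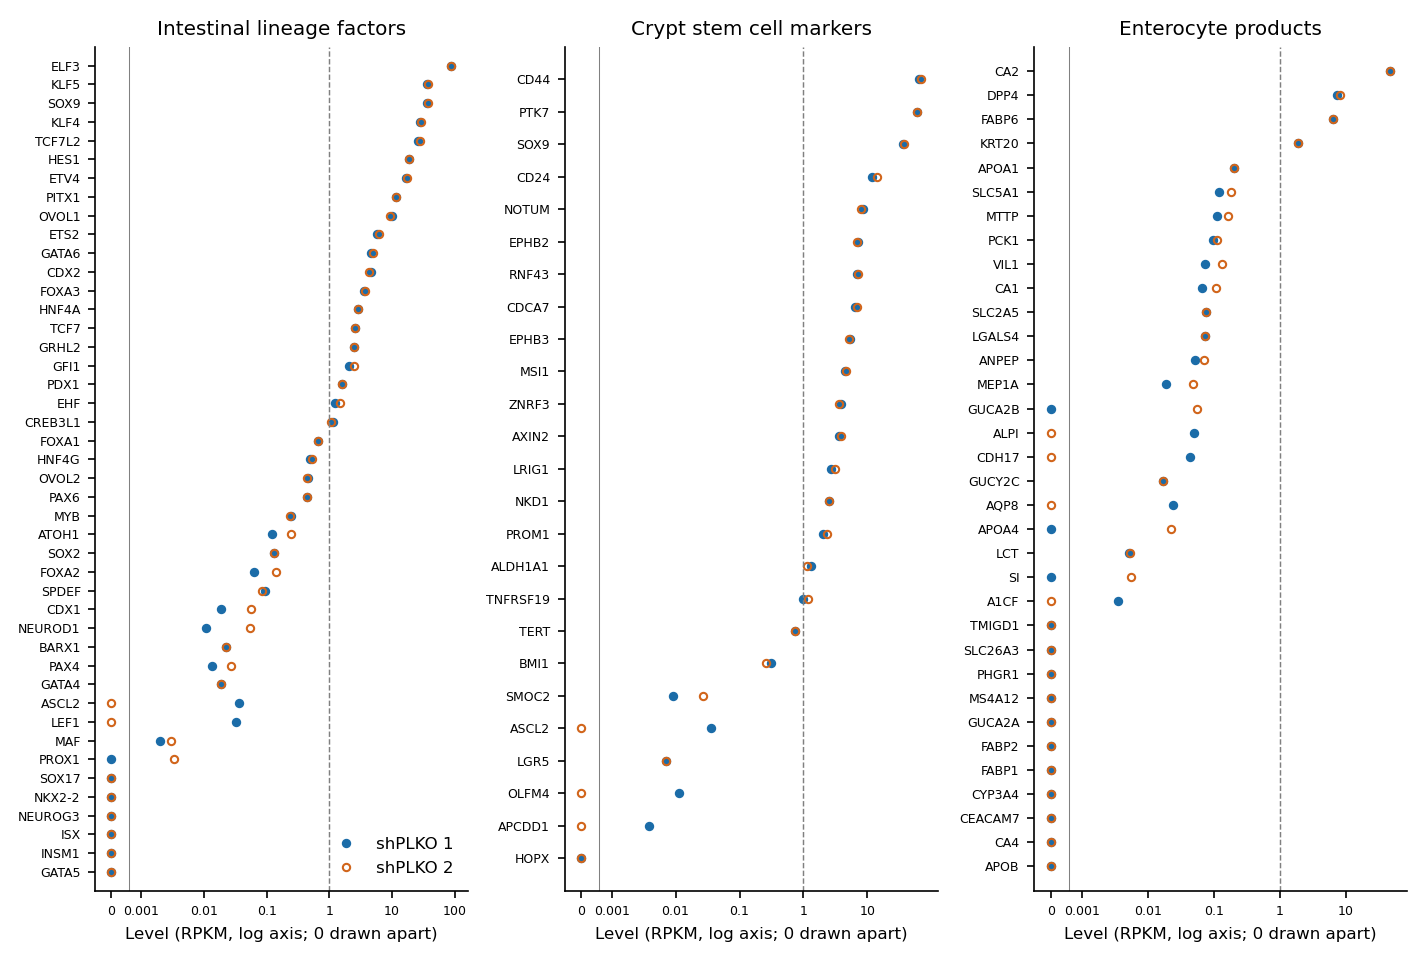
Level in RPKM (log axis, with 0 drawn apart at the left) of intestinal lineage factors, crypt stem cell markers and enterocyte products; filled points are shPLKO 1, open points shPLKO 2, and the dashed line is 1 RPKM. Not all listed factors are drawn. Of the stem cell markers 17 of 25 lie right of the line in both libraries and of the enterocyte products 4 of 34.

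Of 54 lineage factors of other tissues, 12 (22.2%) were at or above 1 RPKM in both libraries, against 54.6% of all genes, and 15 were listed at 0. GATA2, a factor of blood precursors, was the highest at 8.38 and 8.38 RPKM, and RUNX3 was at 6.42 and 6.15 RPKM. CEBPA was at 5.203 and 3.84 RPKM, LHX2 at 3.88 and 3.98 RPKM and DLX2 at 3.53 and 3.81 RPKM. PPARG, a receptor of fat cells that colon also uses, was at 2.503 and 2.52 RPKM, and the thyroid and lung factor NKX2-1 was at 2.17 and 1.63 RPKM. MYOD1, SOX10, TAL1, NANOG and OLIG2 were among those listed at 0.

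The HOX clusters, which record position along the body, differed from one another. In HOXA 9 of 11 genes were at or above 1 RPKM, with HOXA9 at 26.6 and 26.3 RPKM and HOXA10 at 14.7 and 14.3 RPKM. In HOXB 7 of 10 were, with HOXB7 at 12.6 and 12.7 RPKM and HOXB9 at 11.2 and 10.1 RPKM. In HOXC 3 of 9 were, led by HOXC9 at 5.09 and 6.07 RPKM. In HOXD only HOXD8 was, at 5.89 and 5.25 RPKM. Its neighbours in the RefSeq gene order, HOXD9 and HOXD4, were at 0.0697 and 0.07002 RPKM and at 0.274 and 0.192 RPKM. Of 44 FOX factors 18 passed, led by FOXK2 at 41.4 and 41.4 RPKM. Of 19 SOX factors 6 passed, with SOX4 at 22.5 and 22.5 RPKM after SOX9. Of 14 T-box factors 2 passed, led by TBX3 at 10.6 and 10.1 RPKM, a repressor needed for limb and breast development.

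Receptor tyrosine kinases, which pass growth factor and contact signals into the cell, were expressed at about the rate of all genes, 33 of 58 at or above 1 RPKM. EPHA2, a receptor for ephrins on neighbouring cells, was the highest at 132 and 136 RPKM. PTK7, given above, came next. DDR1, a collagen receptor, was at 39.7 and 41.4 RPKM, and FGFR4 at 34.9 and 33.5 RPKM. RYK, a Wnt receptor, was at 26.7 and 28.9 RPKM and EPHB4, another ephrin receptor, at 26.4 and 26.1 RPKM. FGFR1, ERBB2 and FGFR3 followed at 19.6 and 20.1 RPKM, at 20.6 and 19.1 RPKM and at 19.5 and 18.7 RPKM, and the range of ERBB2 overlaps those of the other two. The hepatocyte growth factor receptor MET was at 15.2 and 16.8 RPKM. EGFR, the target of antibodies used in colorectal cancer, was at 7.98 and 9.02 RPKM, its partner ERBB3 at 6.97 and 7.21 RPKM, and ERBB4 at 0.0212 and 0.01597 RPKM. KIT and PDGFRA, receptors of stem cell factor and of PDGF, were at 0.01902 and 0.0127 RPKM and at 0.0162 and 0.0122 RPKM. MUSK, EPHA3, EPHA5 and EPHA7 were listed at 0. Of 32 neighbouring pairs above 1 RPKM, 7 had overlapping ranges.

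Of 48 nuclear receptors, which respond to hormones and lipids or act without a known ligand, 23 were at or above 1 RPKM. The share (47.9%) lay somewhat below the 54.6% of all genes. NR1D1, a repressor of the circadian clock, led at 68.3 and 71.8 RPKM, followed by NR2F6 at 43.4 and 38.5 RPKM and ESRRA, a regulator of mitochondrial genes, at 29.5 and 26.2 RPKM. PPARD was at 23.4 and 23.3 RPKM and the vitamin D receptor VDR at 8.12 and 7.45 RPKM. The glucocorticoid receptor NR3C1 was at 0.363 and 0.393 RPKM. The oestrogen receptor ESR1 was at 0.0398 and 0.04004 RPKM. The retinoic acid receptors divided: RARG was at 20.1 and 20.1 RPKM, RARA at 9.39 and 9.33 RPKM, and RARB was listed at 0, as were ESRRG, NR0B1 and NR2E1. Among neighbouring pairs above 1 RPKM 3 of 22 had overlapping ranges.

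Receptors of the Wnt pathway were at low to middle levels, with 17 of 23 (73.9%) passing 1 RPKM, against 54.6% of all genes. The co-receptors LRP5 and LRP6 were at 11.9 and 10.9 RPKM and at 4.198 and 4.89 RPKM. Among the frizzled receptors FZD6 was at 10.4 and 11.5 RPKM and FZD7 at 9.99 and 10.3 RPKM, and FZD10 was listed at 0. LGR4, the relative of LGR5, was at 3.87 and 4.36 RPKM. Of 23 Wnt and R-spondin ligands 11 passed, with WNT16 far above the rest at 32.6 and 33.96 RPKM and WNT7B next at 8.28 and 8.097 RPKM. RSPO2 was listed at 0 and WNT5A was at 0.00177 and 0 RPKM. The Wnt antagonist DKK1 was at 369.8 and 350.4 RPKM.

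In the TGF-beta and BMP family 9 of 14 receptors passed, with the activin receptor ACVR1B at 12.9 and 12.98 RPKM and TGFBR2, a target of mismatch repair loss, at 5.18 and 5.98 RPKM. Of 9 Notch receptors and ligands 7 passed. NOTCH2 was at 16.5 and 16.96 RPKM, NOTCH3 at 14.8 and 14.9 RPKM and NOTCH1 at 5.54 and 5.61 RPKM. The ligands JAG2 and JAG1 were at 16.6 and 15.4 RPKM and at 10.5 and 11.9 RPKM, and DLL4 and DLL1 at 2.52 and 2.73 RPKM and at 2.39 and 2.796 RPKM. NOTCH4 was at 0.07301 and 0.0881 RPKM and DLL3 at 0 and 0.0554 RPKM.

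Of 13 death receptors and their relatives 9 were at or above 1 RPKM. TNFRSF10B, a receptor for the death ligand TRAIL, was at 82.8 and 85.4 RPKM and its relative TNFRSF10A at 23.2 and 23.1 RPKM, with the decoy receptor TNFRSF10D at 42.7 and 46.7 RPKM. FAS, the receptor for FAS ligand, was at 0.355 and 0.436 RPKM, from 103 and 126 reads. TNFRSF1A, the main TNF receptor, was at 53.4 and 49.6 RPKM, and TNFRSF1B at 0.362 and 0.428 RPKM.

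Immune receptors depended on their class. Of 39 cytokine receptor genes 22 (56.4%) passed 1 RPKM, near the 54.6% of all genes. The shared chain IL10RB was at 26.1 and 28.3 RPKM and IL4R at 15.8 and 15.8 RPKM. The interferon gamma chains IFNGR2 and IFNGR1 were at 17.2 and 16.8 RPKM and at 12.9 and 13.4 RPKM. The lymphocyte chains IL2RA, IL2RG and IL7R were at 0 and 0.0205 RPKM, at 0.0214 and 0.0215 RPKM and at 0.0284 and 0.0143 RPKM. Of 22 chemokine receptors 1 passed, CXCR4 at 1.89 and 1.86 RPKM. Of 10 Toll-like receptors 0 passed. The highest was TLR5, the flagellin receptor, at 0.355 and 0.584 RPKM, followed by TLR6 at 0.132 and 0.1702 RPKM and TLR3 at 0.162 and 0.0543 RPKM. TLR9, TLR1, TLR10, TLR7, TLR4 and TLR2 were lower still, from 0.0933 and 0.111 RPKM for TLR9 to 0.00348 and 0.00349 RPKM for TLR2, and TLR8 was listed at 0. Of 26 integrins, the receptors that tie cells to the matrix, 14 (53.8%) passed, also near the share of all genes. ITGA3, a laminin-binding chain, was at 209.96 and 205 RPKM, and its partner ITGB1 was at 176 and 205 RPKM. ITGA5, the fibronectin-binding chain, was at 59.3 and 59.9 RPKM.

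**Figure D3:**
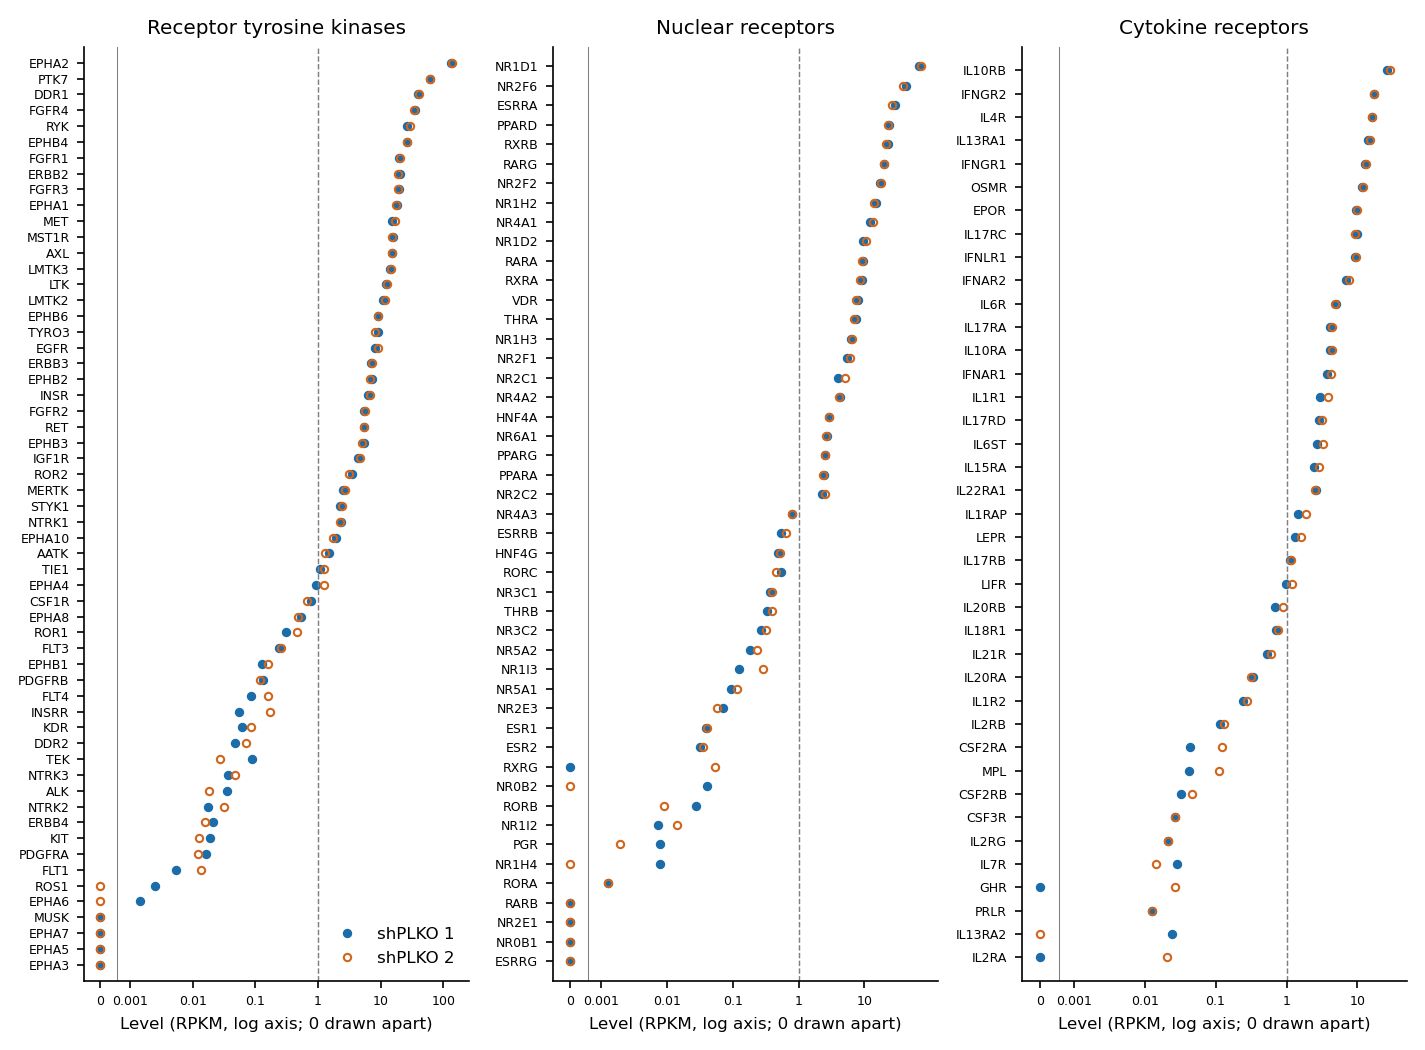
Level in RPKM (log axis, with 0 drawn apart at the left) of receptor tyrosine kinases, nuclear receptors and cytokine receptors; filled points are shPLKO 1, open points shPLKO 2, and the dashed line is 1 RPKM. Not all listed nuclear receptors are drawn. Each class runs from genes over 20 RPKM down to genes at or near 0, and the libraries part mainly below 1 RPKM.

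Among secreted ligands 23 of 48 (47.9%) passed, against 54.6% of all genes. AREG, an EGFR ligand, was the highest at 776 and 772 RPKM, far above the other EGFR ligands TGFA at 22.9 and 22.8 RPKM, EREG at 16.6 and 17.1 RPKM and HBEGF at 11.2 and 11.9 RPKM. EGF itself was at 0.117 and 0.197 RPKM. GDF15, a stress cytokine, was at 217 and 209.97 RPKM, and MDK, a heparin-binding factor, at 97.2 and 94.3 RPKM. HGF and IGF1, ligands mostly made by stromal cells, were listed at 0. All 24 immediate early genes, which respond to growth signals within minutes, were at or above 1 RPKM. IER3 was at 736 and 726 RPKM, the phosphatase DUSP5 at 471 and 499 RPKM and JUNB at 327 and 339.7 RPKM. EGR1 was at 132 and 148 RPKM, FOSL1 at 95.96 and 91.8 RPKM, FOS at 34.3 and 33.7 RPKM and FOSB at 2.86 and 2.66 RPKM.

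Of 9 genes known to be mutated in HCT116, 8 were at or above 1 RPKM in both libraries, against 54.6% of all genes. CTNNB1, which encodes beta-catenin, was at 98.6 and 102 RPKM. PIK3CA, a lipid kinase subunit, was at 1.46 and 1.81 RPKM. BAX, a cell death gene, was at 77.8 and 73.7 RPKM and CDKN2A, a cell cycle inhibitor, at 10.5 and 9.37 RPKM. MSH3, a mismatch repair gene, was at 0.207 and 0.193 RPKM. Of 9 mismatch repair genes 7 passed. MSH6, which recognises mismatches, was at 8.198 and 9.31 RPKM. PMS2 was at 3.42 and 3.35 RPKM and PMS1 at 2.04 and 2.25 RPKM. The nuclease EXO1 was at 1.48 and 1.73 RPKM and MLH3 at 0.444 and 0.533 RPKM, while the replication clamp PCNA was far higher at 82.9 and 80.4 RPKM.

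In the RAS, RAF and MYC set 11 of 12 passed and MYCN was listed at 0. RRAS was the highest at 164 and 174 RPKM. HRAS and NRAS were at 28.5 and 27.6 RPKM and at 22.997 and 26.1 RPKM. RRAS2 was at 25.3 and 25.6 RPKM and MRAS at 4.58 and 4.87 RPKM. Of the RAF kinases, which act below RAS, ARAF was at 13.3 and 12.9 RPKM and BRAF at 1.96 and 2.399 RPKM. MYC, a target of Wnt signals, was at 83.6 and 78.9 RPKM and MYCL at 3.92 and 4.09 RPKM. Of 16 colorectal tumour suppressors 14 passed, led by CDKN1A, a cell cycle inhibitor, at 443 and 425 RPKM. SMAD3 and SMAD4, which carry TGF-beta signals, were at 31.7 and 31.98 RPKM and at 4.82 and 5.07 RPKM. APC, which restrains beta-catenin, was at 0.911 and 1.15 RPKM.

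Several large families were at or near 0 for most members. An exact 0 in these files may also be a failed count, since MRPS24, a mitochondrial ribosomal protein that cells use in general, is listed at 0 too. Families of near-identical genes can in addition lose reads that match several places, and the part of this in their zeros was not tested. Of 400 olfactory receptors 380 (95%) were listed at 0 in both libraries, against 15.7% of all genes, and 4 were at or above 1 RPKM. Of 93 keratin-associated proteins of hair 81 were at 0, of 40 beta-defensins 34, of 27 taste receptors 16, of 19 UDP-glucuronosyltransferases 12, of 18 late cornified envelope proteins 13, and of 17 type I interferons 14. The 7 killer cell receptors were all at 0. In none of the beta-defensins, taste receptors, UDP-glucuronosyltransferases, late cornified envelope proteins, interferons, Siglecs, pregnancy-specific glycoproteins, crystallins or beta protocadherins did a member reach 1 RPKM in both libraries.

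Single members were listed far above the rest of their families. How reads matching several members were assigned is not given, so contrasts within families, here and among the MAGE genes below, are uncertain. The olfactory receptor OR51B5 was at 18.2 and 16.7 RPKM, with OR51B4 at 6.83 and 5.55 RPKM and OR51B2 at 1.49 and 2.31 RPKM. In the RefSeq gene order these 3 genes stand next to each other and beside the embryonic globin HBE1, which was at 86.7 and 91.4 RPKM, while OR51B6 on the other side was listed at 0. Within the same globin cluster HBG2 was at 0.619 and 1.698 RPKM, and HBG1 and HBB were listed at 0. HBE1 was looked up after these values were seen. KRTAP2-3, a hair protein gene, was at 70.8 and 89.7 RPKM, while its neighbours KRTAP2-2 and KRTAP2-4 were at 0.2299 and 0.139 RPKM and at 0.0859 and 0.302 RPKM. The counting intervals of KRTAP2-3 in the libraries, 67.6 to 74.1 and 86.1 to 93.4 RPKM, do not overlap.

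Among genes normally limited to the germ line, MAGEB2 was at 208 and 202 RPKM, while MAGEB3 beside it was at 0 and 0.0275 RPKM and MAGEB4 was listed at 0. MAGEA3 was at 49.3 and 46.8 RPKM and MAGEA2 at 0.507 and 0.425 RPKM. The widely expressed members MAGEF1, MAGED1 and MAGED2 were at 67.5 and 67.1 RPKM, at 37.6 and 37.1 RPKM and at 36.9 and 36.9 RPKM, and in all 6 of 36 MAGE genes passed. PRAME was at 20.3 and 20.7 RPKM and was the only 1 of 23 members of its family to pass. Among 55 keratins 14 passed. After the 3 highest came KRT10 at 35.4 and 34.7 RPKM, KRT7 at 22.6 and 22.1 RPKM and KRT15 at 18.03 and 16.8 RPKM. Collagens were mixed, 12 of 44, led by COL6A1 at 66.1 and 67.8 RPKM and COL6A2 at 59.5 and 60.4 RPKM. Of 56 cytochrome P450 genes 16 passed, with the sterol enzyme CYP51A1 at 37.9 and 41.7 RPKM and the vitamin D enzymes CYP24A1 and CYP27B1 at 13.4 and 14.2 RPKM and at 6.32 and 6.08 RPKM. Of 477 ZNF zinc finger genes 225 (47.2%) passed, against 54.6% of all genes. ZNF593 was the highest at 83.2 and 79.6 RPKM. Of 71 replication-dependent histone genes 12 passed, led by HIST1H1C at 128 and 135 RPKM. Most mRNAs of such histones are known to lack a poly(A) tail.

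**Figure D4:**
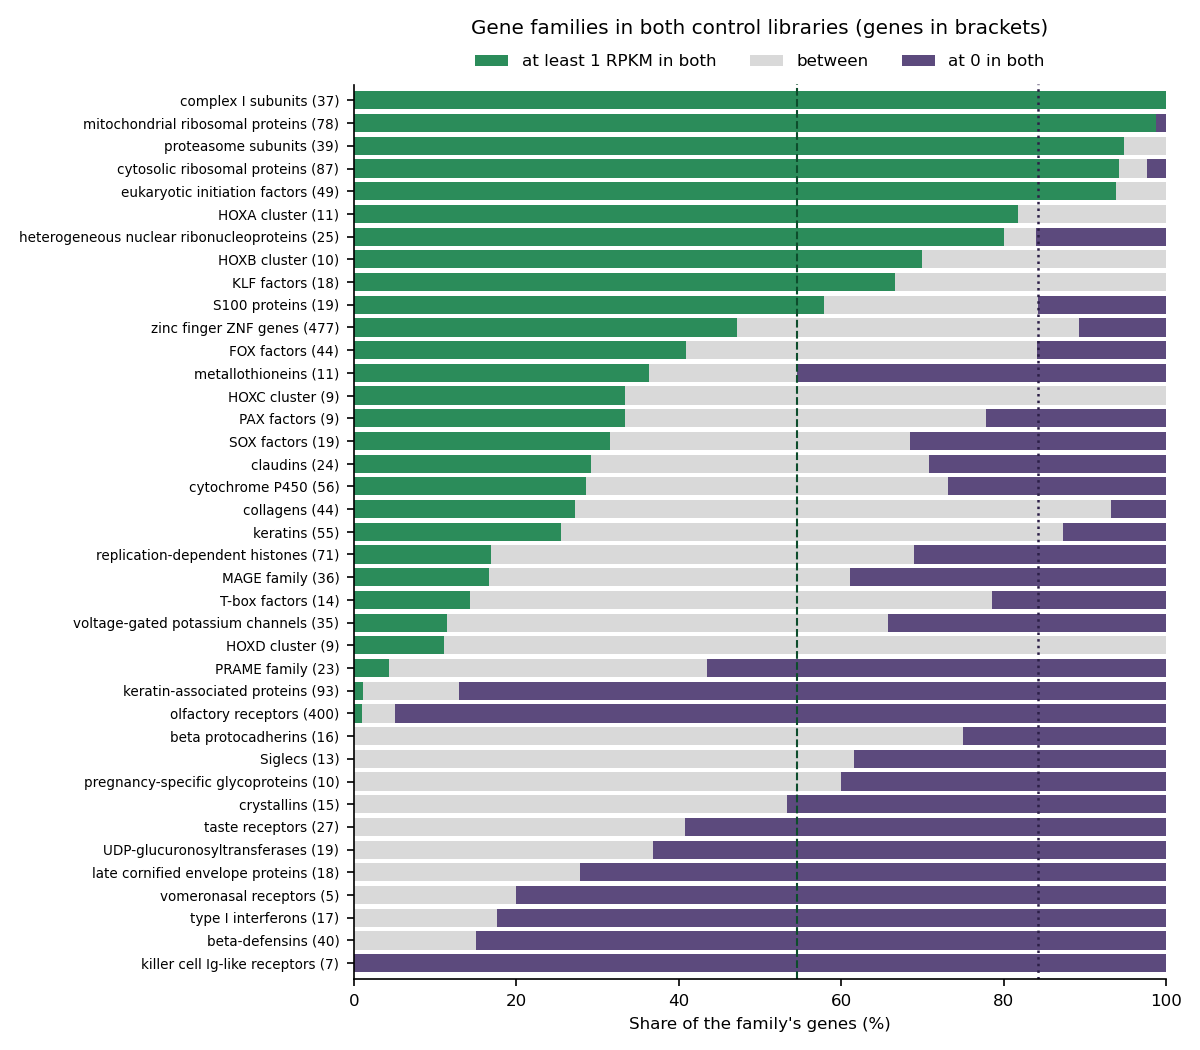
Share of each gene family (number of genes in brackets) that was at or above 1 RPKM in both shPLKO libraries, between, or at 0 in both, as stacked bars on an axis from 0 to 100%; the dashed line marks the 54.6% of all genes at or above 1 RPKM, and 15.7% of all genes lie to the right of the dotted line. Complex I subunits fill the top bar at 37 of 37, and olfactory receptors hold 380 of 400 genes at 0.

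The 2 libraries were close for most genes. Over the 11042 genes whose mean was at least 1 RPKM, the median size of the difference was 0.088 on the log2 scale, or 1.06-fold, and the SD of the log2 ratio was 0.165. Across genes Pearson's r of log2(RPKM + 1) was 0.999 and Spearman's rho 0.990. These are descriptions, since genes are not independent. The median size of the log2 difference fell with level, from 0.146 at 1 to 3 RPKM to 0.061 at 30 to 100 RPKM, and was 0.063 above that. Recovered reads differed by more than counting error, with a chi-square per degree of freedom of 5.67 over 14236 genes, so the libraries were kept as 2 samples. The chi-square rose with level, from 1.88 per gene at 0.1 to 1 RPKM to 33.4 at 100 RPKM and above. This measure includes any difference in library preparation, sequencing or processing. Its expected reads came from the totals alone, so the shift with length and level given below is also inside it. With 1 library on each side no p-value was computed for single genes.

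The difference moved with gene length and with level. Lengths here are those of the recovered gene models, and single ones may be off by a whole factor. In the shortest eighth of the genes, 232 to 1423 bases, the median log2 ratio of shPLKO 1 to shPLKO 2 was 0.05. In the longest eighth, 7673 to 33654 bases, it was -0.10. The medians fell at each step between. High genes leaned to shPLKO 1, with a median of 0.05 at 100 RPKM and above, and genes of 1 to 3 RPKM to shPLKO 2, with a median of -0.08. Short genes were also the higher ones, with a median level of 28.6 RPKM against 3.58 RPKM for the longest eighth, and the separate parts of length and level were not tested. The ribosomal proteins, which are short and high, had a median of 0.09 and the complex I subunits 0.09, against -0.02 over all genes compared.

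Past a fold of 1.5, 24 genes (0.217% of 11042) were higher in shPLKO 1 and 25 (0.226%) were higher in shPLKO 2. Of these 49, 46 had a mean under 5 RPKM. The 3 above that level were ASMTL, CD99 and EIF3C. ASMTL was at 16.3 and 1.12 RPKM, a 14.6-fold difference from 1308 and 89 reads. CD99, a surface glycoprotein, was at 9.73 and 0.747 RPKM, a 13.0-fold difference from 1296 and 99 reads. EIF3C, a subunit of initiation factor 3, was at 7.39 and 15.6 RPKM, 2.12-fold higher in shPLKO 2. The counting intervals of the libraries do not overlap for any of these 3 genes.

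ASMTL and CD99 both lie in the pseudoautosomal region, whose sequence is present on X and on Y. Of the 18 pseudoautosomal genes in the files, 3 had a mean of at least 1 RPKM, and the third, SLC25A6, was at 2.79 and 3.42 RPKM. Below that level AKAP17A leaned the same way, at 1.26 and 0.164 RPKM from 123 and 16 reads, and DHRSX the other way, at 0.0255 and 0.282 RPKM from 2 and 22 reads. PPP2R3B, VAMP7 and GTPBP6 were close between the libraries, with 47 and 49, 23 and 22, and 13 and 13 reads. PLCXD1 and ZBED1 leaned to shPLKO 1, with 50 and 31 and with 16 and 9 reads, and CSF2RA to shPLKO 2, with 4 and 11. Reads from such a region match 2 places in a genome that holds both copies, and the part this plays in the difference was not tested.

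EIF3C shares 51.0% of its 31-base words with its near-identical copy EIF3CL, which was at 0.984 and 1.54 RPKM, also higher in shPLKO 2. Among the genes past a fold of 1.5, 22 of the 47 with a transcript to compare, or 46.8%, shared at least 10% of their words with another gene, against 15.3% of the 10970 genes compared. These partners include near-identical copies, pseudogenes and readthrough transcripts that overlap the gene, such as DNAAF4-CCPG1 for DNAAF4. SULT1A3, a sulfotransferase with a near-identical copy, was at 0.539 and 4.26 RPKM, 7.91-fold higher in shPLKO 2. U2AF1, a splicing factor, was at 2.22 and 0.822 RPKM, and its copy U2AF1L5 at 4.49 and 3.798 RPKM. SMN2 was at 11.9 and 8.097 RPKM, while SMN1, which shares 98.0% of its words, was at 17.02 and 15.6 RPKM. CDK11A was at 8.96 and 11.996 RPKM, the other way from its copy CDK11B at 16.4 and 14.5 RPKM. Levels of all these genes are uncertain, since reads may be divided between copies.

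Among the other genes whose mean was at least 5 RPKM, those with the largest ratios differed by less than 1.5-fold. After SMN2, those higher in shPLKO 1 ran from S100A1, a calcium-binding protein at 6.08 and 4.22 RPKM, to UQCC3, an assembly factor of respiratory complex III at 12.4 and 9.41 RPKM, with MSTO1, ONECUT3, GSTT2B, ZNF358 and GRWD1 between. These ratios ran from 1.32 to 1.44. Those higher in shPLKO 2 ran from SLC25A36, a mitochondrial carrier at 6.62 and 9.03 RPKM, to ATAD2, a chromatin protein at 5.25 and 6.89 RPKM, with FMNL2, YOD1, RBM7, CPD, RRAD and APOE between. These ratios ran from 1.31 to 1.36. The counting intervals overlap for S100A1 and APOE and not for the others. MSTO1, GSTT2B, ZNF358 and RBM7 share 50.5%, 94.2%, 20.8% and 13.1% of their words with other genes. Over all genes compared, the intervals do not overlap for 19.9%, so this alone does not set a gene apart.

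A few low genes of other tissues differed more. VPREB3, a gene of B cell precursors, was at 2.19 and 0.564 RPKM, from 39 and 10 reads. The basal keratins KRT5 and KRT14 were at 2.67 and 0.831 RPKM and at 2.33 and 0.887 RPKM, from 187 and 58 reads and from 87 and 33 reads. Of other basal keratinocyte genes, KRT6A leaned the same way at 0.549 and 0.283 RPKM. TP63, the factor that defines that cell type, was at 0.0749 and 0.0658 RPKM, KRT17 at 1.02 and 1.03 RPKM and COL17A1 at 1.74 and 1.5998 RPKM. The adult globin HBA1 was at 2.004 and 0.708 RPKM, from 37 and 13 reads, while HBB was listed at 0 in both. HBA1 shares 85.2% of its words with its copy HBA2, which was at 0.109 and 0 RPKM. KRT14 shares 45.5% of its words with other genes, KRT5 7.20% and VPREB3 none. Levels of HBA1 and KRT14 are uncertain to that extent. These genes were named after their values were seen.

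**Figure D5:**
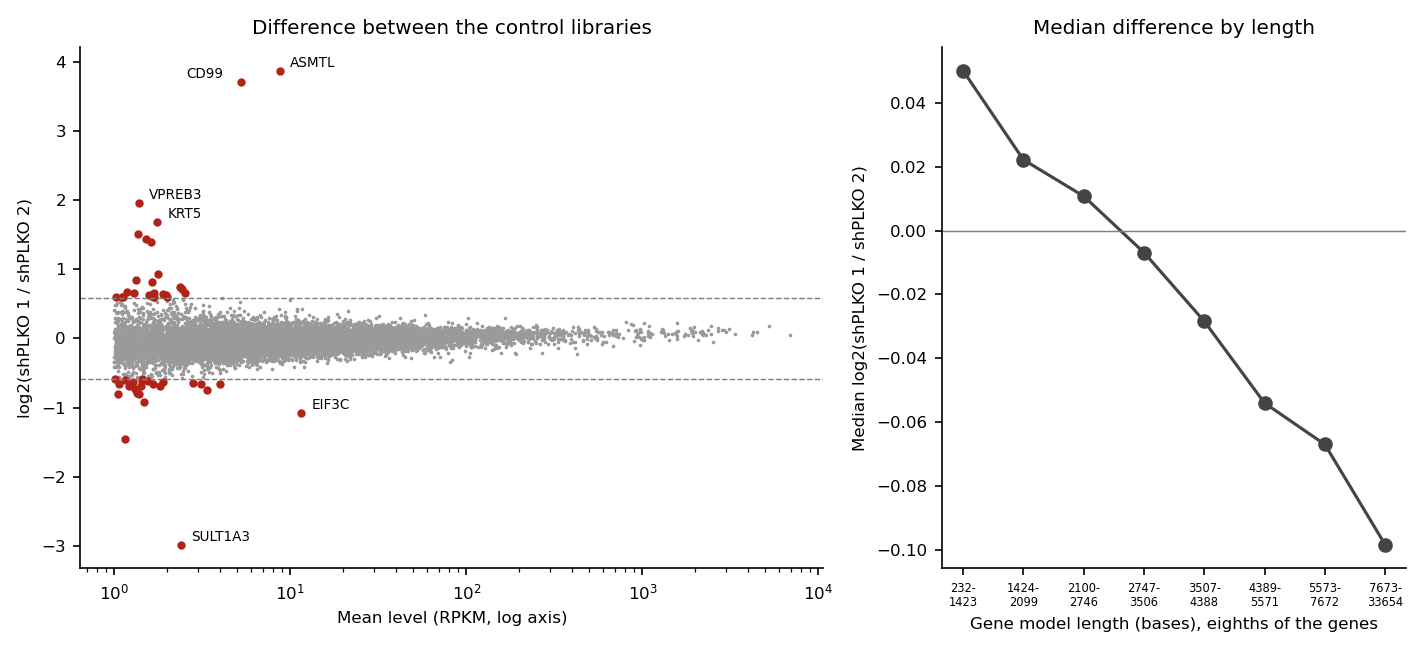
Left, log2 ratio of shPLKO 1 to shPLKO 2 against mean level (RPKM, log axis) for the 11042 genes whose mean was at least 1 RPKM, with dashed lines at a fold of 1.5 and the 49 genes past it in red; right, median log2 ratio in eighths of the genes by length of gene model (bases). ASMTL and CD99 stand apart at the top and SULT1A3 at the bottom, and the median falls from 0.05 in the shortest genes to -0.10 in the longest.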

How the data were processed

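RNA of 2 shPLKO libraries was described across 20003 genes. Bowtie 0.12.2 and hg18 are listed in the submitters' processing notes, without saying what each was used for. How reads were counted, on which annotation, with or without strand, and what was done with reads matching several places is not given in the sources used here. Deposited files hold 1 library each on an RPKM scale without logs, a unit inferred from the values because no header names one. Of 20030 rows per file, 27 named as dates were left out.

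Genes, lists and families were chosen with earlier results of these data known. In each list up to 6 of the highest genes are named, with lineage factors and receptors at or near 0, and every gene of short lists may be named. Also named are the 30 highest genes by RPKM, the 10 highest by reads, and the 10 largest ratios each way among genes whose mean was at least 5 RPKM. Some genes that these rules name are not reported here, though they count in their lists. Genes outside these rules were chosen after their values were seen, as were the lists of globins and basal keratinocyte genes and corrections to the symbol patterns of 6 families.

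Totals of reads were recovered from low values and GENCODE release 29 transcript lengths. For shPLKO 1, 410 lengths gave the total used, 30459886, and 117 the next, 15229943. With the lower total all recovered reads would be lower in proportion. Whole reads and whole lengths, within 0.001 bases, came out for 16853 of 16854 genes above 0, and 94.4% and 94.2% of the totals lay on genes. This follows in part from the search itself. Of the gene models, 864 had the length of an annotated transcript. For others the possible whole length nearest to annotated lengths was mostly taken. Reads, lengths and intervals of single genes may therefore be off by a whole factor. Intervals are exact Poisson at 95% and, like the limit of 3 reads for a 0, allow for counting error alone, there being no molecular identifiers. Shared words are 31-base words of the longest annotated transcripts. Ratios used RPKM with no pseudocount, for genes whose mean was at least 1 RPKM. The scripts ran in Python 3.11.15 with NumPy 2.4.6, pandas 2.3.3 and SciPy 1.17.1, and the read recovery was tested on simulated data. That simulation drew on the recovered read means and lengths, so it cannot show that the lengths are right. Alternatives were other thresholds, filters, pseudocounts, folds and scalings, and each library alone. Promoters are RefSeq's, build GRCh38.p14; no coordinates of the deposited build were used.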

Additional observations from a re-analysis of the deposited data

How the results depend on the processing

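The count of genes at or above 1 RPKM in both libraries was 7224 at a threshold of 5 RPKM and 5110 at 10 RPKM, and stayed within 1.5 times the 10914 reported at 0.1 and 0.5 RPKM, on the mean, in either library and after rescaling to TPM. With each library alone it was 11001 to 11070, the count of genes at 0 was 3772 to 3792, and the share of the 30 highest genes was 19.4% to 20.1%. By reads in place of RPKM, the 30 highest genes held 12.8%. The 49 genes past a fold of 1.5 became 3 with a mean of at least 5 RPKM, 601 at 0.1 RPKM and 2985 with no filter. They became 11 with a pseudocount of 1 RPKM, 443 at the smaller fold tried, 10 at a fold of 2, and 27 without genes that share words, an alternative chosen after seeing the data. Rescaling shPLKO 2 by the median ratio or by TMM gave 50, with 27 and 28 higher in shPLKO 1 and 23 and 22 in shPLKO 2. Of the counts for 71 lists and families, 26 moved by over 1.5 times at 5 RPKM, 7 at 0.5 RPKM, and 1 with shPLKO 1 alone. The promoter comparison with genes at 0 or under 0.1 RPKM was not run, since 70.8% and 71.6% of them had a promoter. No paired analysis was possible because only 1 group was used. Depth limits the low end: a gene under about 3 reads cannot be told from 0.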
